A study of Mus musculus with 10 samples.

Results

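The 7 genes described here encode cytokines, or cytokine chains, that regulatory T cells (Tregs) make or that define the effector T cells which Tregs restrain: Il10, Ebi3, Il12a, Ifng, Il17a, Il21 and Il2. They were chosen by name, with earlier results of these data known, and all 7 were found among the 55401 gene IDs of the count table. Transcripts were read by RNA-seq in 5 groups of Tregs from C57BL/6J mice aged 8 to 12 weeks, with 2 libraries per group. SP-Tregs were splenic cells of untreated mice. Ischemia-Tregs were isolated from brain on day 28 of ischemic stroke, which was induced in males by transient occlusion of the middle cerebral artery. The other 3 groups, called iB-Tregs, were splenic and lymph node Tregs kept for 6 days on primary astrocytes prepared from the glia of neonatal mouse brain. All iB-Tregs were stimulated with anti-CD3 and anti-CD28 (2 μg/ml of either antibody) in medium with 20 ng/ml IL-2, and iB-Tregs (A) received nothing else. iB-Tregs (B) received in addition IL-33 at 20 ng/ml and serotonin at 10 μM, and iB-Tregs (C) received these and the chemokines CCL1 and CCL20 at 20 ng/ml each. The cells carried a Foxp3-hCD2 knock-in reporter, which puts human CD2 on the surface of Foxp3-expressing cells, and hCD2+ cells were collected with magnetic beads for RNA. Whether libraries of 1 group represent different animals or cultures is not stated in the labels. The p-values therefore rest on the spread of these libraries alone, and that spread may be technical.

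Interleukin-10 is a dimer of 1 chain type that acts through IL-10R1 (Il10ra) and IL-10R2 (Il10rb), JAK1, TYK2 and STAT3, and restrains macrophages and effector T cells. EBI3 is a shared chain: with the p35 chain encoded by Il12a it forms IL-35, and with p28, encoded by Il27, it forms IL-27. Interferon-gamma is the main cytokine of type 1 T cells and natural killer cells, and IL-17A, IL-21 and IL-2 mark type 17 cells, helper cells and recently activated conventional T cells. Foxp3 represses Il2 and Ifng in Tregs, which depend on IL-2 from other cells, while IL-10 is a leading product of Tregs in barrier and injured tissues.

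The total count was 5186728 to 6634583 in the spleen and brain libraries and 15628261 to 16388161 in the iB-Treg libraries, so 1 read was worth 0.188 to 0.299 CPM (read count scaled to library size) in the former and 0.0517 to 0.0566 CPM in the latter. The spleen and brain columns of the table do not stand beside their own gene IDs past the first rows, and their counts were realigned before use. The spleen and brain counts thus differ from the iB-Treg counts in depth and in the list of gene IDs they follow. In comparisons between these sets, such differences cannot be told apart from those of culture and tissue. All 8 T cell and Treg markers had counts in all 10 libraries, among them Foxp3 at 674 CPM in SP-Tregs, 779 CPM in Ischemia-Tregs and 235 to 287 CPM in iB-Tregs (group means). The libraries also held transcripts of other cells. The summed level of 16 microglia and macrophage markers was 11.3 to 11.5 CPM in SP-Tregs, 77.5 to 106 CPM in Ischemia-Tregs, 4826 to 5037 CPM in iB-Tregs (A) and 7304 to 8302 CPM in iB-Tregs (B) and (C). In the iB-Treg libraries it exceeded the sum of the T cell and Treg markers, 3329 to 3639 CPM, and all 16 had counts, led by Lyz2 at 2859 to 4385 CPM. The 10 astrocyte markers summed to 12.6 to 14.5 CPM (spleen), 130.4 to 148 CPM (brain) and 3458 to 6999 CPM (iB-Tregs), in the last mostly Apoe, which macrophages also express, at 3673 to 6944 CPM in the iB-Treg groups, while Gfap was at 1.30 to 2.89 CPM there. The 7 CD8 T and natural killer cell markers summed to 30.8 to 37.4 CPM (spleen), 103 to 109.8 CPM in Ischemia-Tregs and 45.4 to 64.3 CPM in iB-Tregs, and the 4 dendritic cell markers to 0.536 to 2.44, 32.4 to 39.2 and 12.7 to 127 CPM. The 7 B and plasma cell markers summed to 51.1 to 65.4 CPM in the spleen and brain libraries and 8.12 to 10.6 CPM in iB-Tregs, where Ms4a1 was at 0 in all 6 libraries. Some of the cytokine genes are also transcribed by such cells, and in bulk RNA a change in the share of a cell type and a change in RNA per cell cannot be told apart.

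**Figure D1:**
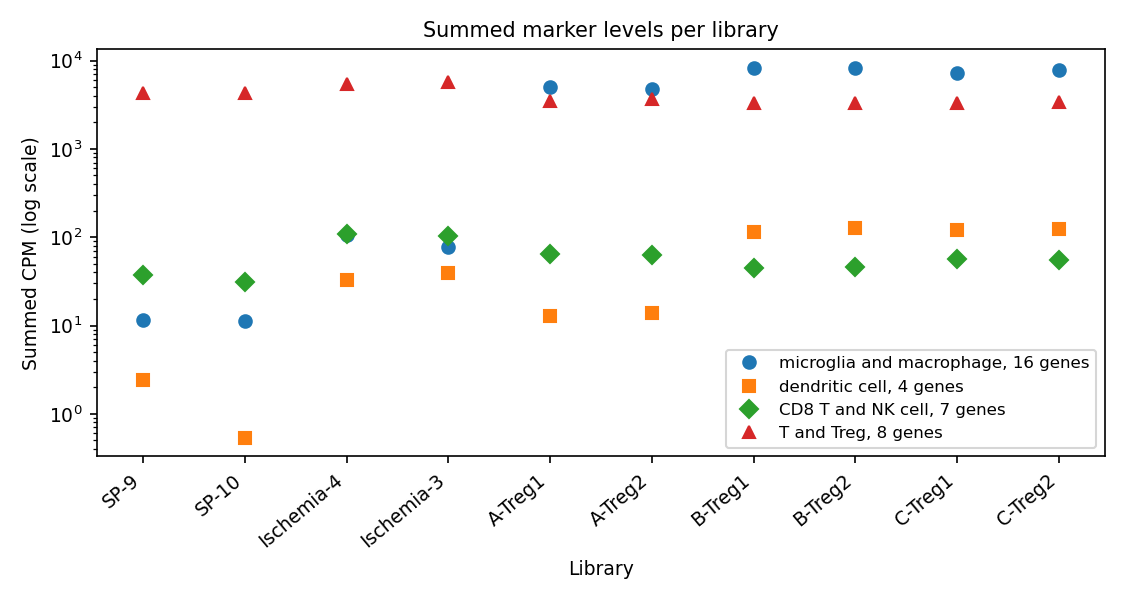
Summed CPM (log axis) of 4 marker lists in each of the 10 libraries, with 1 symbol per list. The microglia and macrophage sum lies at 11.3 to 11.5 CPM in the SP-Treg libraries and at 4826 to 8302 CPM in the iB-Treg libraries, where it is above the T and Treg sum.

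Only 3 of the 7 genes, Il10, Ebi3 and Ifng, passed the filter on low counts (the CPM equal to 10 counts in a library of median size, reached in at least 2 libraries, with at least 15 counts in all), as did 14309 of the 33083 gene IDs kept after realignment. The other 4, Il12a, Il17a, Il21 and Il2, stayed at 10 counts or fewer in each library. On GRCm38, Il10 lies at chr1:131019840-131024970 and Ebi3 at chr17:55952640-55957022, while Ifng lies at chr10:118441050-118445890, all on the plus strand. RefSeq's promoter table for GRCm38.p6 held 6 of the 7 genes. The 250 bases before the start of Ebi3 and Ifng are shown because these 2 tested genes went in opposite directions in iB-Tregs (B) and (C) against SP-Tregs. Both strands were searched for the AP-1 motif TGANTCA, the NFAT core GGAAA and the NF-kB consensus, which do not overlap in these stretches, and capitals mark each match. Ebi3 is at chr17:55952373-55952622 and Ifng at chr10:118440796-118441045, both on the plus strand.
Ebi3: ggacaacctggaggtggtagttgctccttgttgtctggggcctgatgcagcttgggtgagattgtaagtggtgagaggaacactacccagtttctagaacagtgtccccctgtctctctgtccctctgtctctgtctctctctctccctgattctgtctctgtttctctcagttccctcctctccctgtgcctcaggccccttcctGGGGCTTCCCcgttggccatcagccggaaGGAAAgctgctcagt
Ifng: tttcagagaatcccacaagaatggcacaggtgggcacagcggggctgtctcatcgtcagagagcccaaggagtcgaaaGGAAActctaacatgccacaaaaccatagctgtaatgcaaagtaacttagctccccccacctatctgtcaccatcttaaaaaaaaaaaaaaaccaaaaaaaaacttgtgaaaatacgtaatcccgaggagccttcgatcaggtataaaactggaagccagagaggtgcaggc
The Ebi3 stretch held 1 NF-kB consensus match, starting 44 bases before the start, and 1 NFAT core, starting 15 bases before it. The Ifng stretch held 1 NFAT core, starting 172 bases before the start, and neither of the other motifs. An NF-kB consensus was found in 7.25% of 32841 such promoter stretches, an AP-1 motif in 6.75% and the NFAT core in 55.6%. These matches describe letters and show no binding.

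Of the 3 tested members, Il10 had the largest change from spleen to brain. It was at 1.13 and 1.34 CPM in SP-9 and SP-10 of the SP-Tregs, from 6 and 5 reads, and at 48.5 and 44.9 CPM in Ischemia-4 and Ischemia-3, from 210 and 150 reads. iB-Treg (A) libraries had 3.41 and 2.69 CPM, (B) libraries 9.51 and 7.84 CPM and (C) libraries 9.29 and 11.03 CPM. The brain libraries thus stood far above all others, the (B) and (C) libraries overlapped each other, the (A) libraries lay below them, and the spleen libraries were lowest. Among protein-coding genes ranked by counts per length within a library, Il10 was at percentiles 52.6 and 53.7 in spleen and 94.7 and 94.2 in brain.

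**Figure D2:**
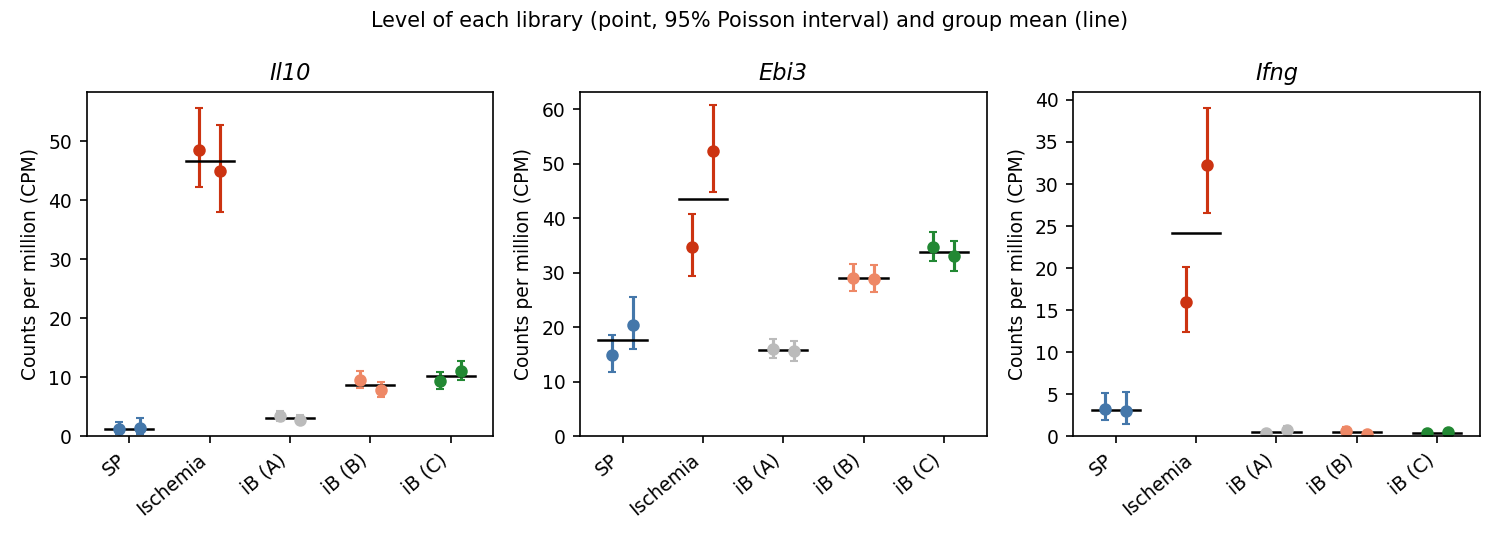
CPM of Il10, Ebi3 and Ifng in each library (points, 2 per group, with exact 95% Poisson intervals of the count) and the group mean (line), on axes that start at 0. Il10 is at 48.5 and 44.9 CPM in the brain libraries and at most 11.03 CPM elsewhere, while Ebi3 in iB-Tregs (C) reaches the lower brain library and Ifng is below 1 CPM in all iB-Treg libraries.

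Il10 rose in Ischemia-Tregs over SP-Tregs by 5.26 on the log2 scale (SE 0.31, 38.2-fold, edgeR quasi-likelihood test with Benjamini-Hochberg adjusted p = 1.09e-09). In the same comparison 37.6% of the 14309 genes tested were called at an adjusted p under 0.05 in either direction, 20.0% as higher and 17.6% as lower. The chains of the IL-10 receptor parted. Il10ra rose from 88.9 to 242 CPM (log2 fold change 1.47, SE 0.16, adjusted p = 2.31e-06), and Il10rb was at 65.7 and 65.4 CPM. Beside these rises, 12 of the 16 microglia and macrophage markers and all 4 dendritic cell markers were called higher in brain and 0 lower, while Adgre1, which encodes the macrophage antigen F4/80, was at 0 in both brain libraries. The part of such cells in the Il10 reads was not tested. The comparisons with SP-Tregs share the 2 SP-Treg libraries, and those with Ischemia-Tregs share the 2 Ischemia-Treg libraries, so they are not independent of each other. Against SP-Tregs, Il10 was higher in iB-Tregs (B) by 2.83 (SE 0.37, adjusted p = 3.22e-06) and in iB-Tregs (C) by 3.05 (SE 0.36, adjusted p = 9.98e-07), where 71.8% and 71.3% of genes were called. The rise in iB-Tregs (A) was smaller (log2 fold change 1.32, SE 0.44, adjusted p = 0.0128, with 72.3% of genes called), and without the library SP-9 it was 1.21 with an adjusted p of 0.111. All iB-Tregs stayed below Ischemia-Tregs in Il10, by 15.3-fold in (A), 5.39-fold in (B) and 4.60-fold in (C), with adjusted p = 2.48e-11, 2.71e-09 and 8.23e-09 and 69.3%, 69.1% and 68.2% of genes called. Of all genes, 38.5%, 38.3% and 37.7% were called higher than in Ischemia-Tregs and 30.9%, 30.8% and 30.5% lower.

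The addition of IL-33 and serotonin was accompanied by more Il10 and more Ebi3 transcript. In iB-Tregs (B) against (A), Il10 rose 2.84-fold (log2 fold change 1.503, SE 0.20, adjusted p = 5.28e-05) and Ebi3 1.83-fold (log2 fold change 0.87, SE 0.15, adjusted p = 3.99e-04). Here 15.5% of genes were called, 8.83% as higher and 6.68% as lower, and both rises held under each alternative run, the Cd3-based scale included. In iB-Tregs (C) against (A), Il10 rose 3.32-fold (adjusted p = 9.36e-06) and Ebi3 2.14-fold (adjusted p = 3.30e-05), with 18.6% of genes called, 9.71% as higher and 8.87% as lower. With CCL1 and CCL20 added, no member passed the test in (C) against (B), where 0.154% of genes were called, 0.0559% as higher and 0.0978% as lower. There the log2 difference of Il10 was 0.23 (95% interval -0.14 to 0.60) and that of Ebi3 was 0.23 (95% interval -0.06 to 0.52), so differences of about that size in either gene were not resolved with these libraries. Microglia and macrophage markers moved in the same libraries: 12 of 16 were called higher and 1 lower in (B) against (A), and 12 higher and 2 lower in (C) against (A). Their sum was 4826 to 5037 CPM in (A), 8281 to 8302 CPM in (B) and 7304 to 7801 CPM in (C), and Itgax, a marker of dendritic cells and some macrophages, was at 10.03 and 10.5 CPM in (A) and 109.9 and 122 CPM in (B). Of 9 astrocyte markers tested, Apoe and Gja1 were called higher in (B) against (A), at 0.92 and 1.09 on the log2 scale, and 0 lower, while 2 were higher and 1 lower in (C) against (A). The part of these cells in the Il10 and Ebi3 reads was not tested.

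Ebi3 was the most abundant member in 9 of the 10 libraries per kilobase of gene length and, of the 3 tested, had the smallest fold change from spleen to brain. Its CPM was 14.8 and 20.4 in SP-Tregs, 34.7 and 52.3 in Ischemia-4 and Ischemia-3, 16.02 and 15.5 in iB-Tregs (A), 29.02 and 28.8 in (B) and 34.7 and 32.99 in (C). The (A) libraries lay between the 2 spleen libraries, and the lower brain library lay between the 2 (C) libraries. Ebi3 rose 2.48-fold in Ischemia-Tregs over SP-Tregs (log2 fold change 1.31, SE 0.20, adjusted p = 8.47e-05). Against SP-Tregs it was -0.13 in iB-Tregs (A) on the log2 scale, which did not pass the test (adjusted p = 0.569), 0.75 in (B) (SE 0.18, adjusted p = 0.00178) and 0.97 in (C) (SE 0.18, adjusted p = 1.58e-04). The rise in (B) was 0.53 with an adjusted p of 0.0574 without SP-9. Against Ischemia-Tregs, Ebi3 was lower in (A) (-1.44, adjusted p = 1.08e-06) and in (B) (-0.57, adjusted p = 0.00520), and the difference in (C) was -0.34 (95% interval -0.68 to -0.00, adjusted p = 0.0688). Without Ischemia-3 the difference in (B) was -0.23 (adjusted p = 0.198), and without Ischemia-4 that in (C) was -0.60 (adjusted p = 0.00178). These differences from brain also depend on the scale between libraries: with library totals alone they were 0.071 in (B) and 0.29 in (C), neither called, and relative to the summed Cd3d, Cd3e and Cd3g counts they turned to 0.68 and 0.76, both called. The 2 results of (A) depend on the scale too. Relative to the same Cd3 counts, Ebi3 in (A) was 0.61 against SP-Tregs, which was called (adjusted p = 0.00575). Against Ischemia-Tregs it was -0.20 in (A), not called (adjusted p = 0.269).

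The chains that EBI3 needs were scarce. Il12a, the IL-35 partner, had 0 reads in all 4 spleen and brain libraries, which allows up to 0.331 CPM (spleen) and 0.391 CPM (brain) at 3 counts over the group. Its reads in the iB-Treg libraries were 10 and 1 in (A), 2 and 2 in (B) and 7 and 1 in (C), at group means of 0.285, 0.109 and 0.220 CPM, below what the spleen libraries could have shown. Il27, the partner in IL-27, had no read in the spleen and brain libraries and group means of 0.0517 to 0.273 CPM in iB-Tregs. Il12b, which pairs with p35 to form IL-12 and is mainly a product of myeloid cells, was named after its values were seen: it was at 4.50 and 4.25 CPM in (A), 0.217 and 0.494 in (B) and 0.0546 and 0.113 in (C). Its log2 fold change was -3.59 in (B) against (A) (adjusted p = 1.05e-04) and -5.55 in (C) against (A) (adjusted p = 1.37e-05), opposite in sign to that of Ebi3. Il23a, the p19 chain of IL-23, was at 0.764 to 1.28 CPM in the iB-Treg groups. Il6st, which encodes the gp130 chain used by IL-27 and IL-35 receptors, fell from 522 CPM in SP-Tregs to 195 CPM in Ischemia-Tregs (log2 fold change -1.43, SE 0.09, adjusted p = 1.33e-09) and 116 CPM in iB-Tregs (A) (log2 fold change -2.17, SE 0.08, adjusted p = 5.45e-13). Il12rb2, the other IL-35 receptor chain and the signalling chain of the IL-12 receptor, had mean levels of 0.952 CPM (spleen) and 1.06 CPM (brain) and rose to 12.01 CPM in iB-Tregs (A) (log2 fold change 3.74, SE 0.39, adjusted p = 2.04e-07).

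Ifng had a different pattern from Il10 and Ebi3: it was higher in brain than in spleen and nearly silent in culture. SP-9 and SP-10 had 3.20 and 2.95 CPM, from 17 and 11 reads, and Ischemia-4 and Ischemia-3 had 15.9 and 32.3 CPM, from 69 and 108 reads. The iB-Treg libraries had 0.362 and 0.699 CPM in (A), 0.652 and 0.219 CPM in (B) and 0.328 and 0.453 CPM in (C), from 4 to 13 reads each. All 6 iB-Treg libraries were below both spleen libraries, and the 2 brain libraries, above the rest, differed from each other beyond their counting intervals. Ifng rose 7.69-fold in Ischemia-Tregs over SP-Tregs (log2 fold change 2.94, SE 0.45, adjusted p = 8.66e-05). It was 5.76-fold lower than in SP-Tregs in iB-Tregs (A), 6.94-fold lower in (B) and 7.76-fold lower in (C), with adjusted p = 0.00157, 9.04e-04 and 6.80e-04. The log2 fold change in (B) against SP-Tregs was -3.72 without B-Treg1 and -2.19 without B-Treg2, beside -2.79 with both. In these comparisons 32.5%, 32.5% and 32.2% of all genes were called lower and 39.8%, 39.3% and 39.1% higher. Below Ischemia-Tregs the fold was 44.3, 53.4 and 59.7, with adjusted p = 2.22e-08, 1.79e-08 and 1.65e-08. These log2 fold changes, -5.47, -5.74 and -5.90, were -4.87, -5.13 and -5.29 without Ischemia-3, and that in (B) was -6.67 without B-Treg1 and -5.14 without B-Treg2. All stayed called. Among the iB-Treg groups the log2 differences were -0.27 in (B) against (A), -0.43 in (C) against (A) and -0.16 in (C) against (B), none called (95% interval of the first -1.70 to 1.16). Beside the rise in brain, Cd8a was at 3.57 and 4.02 CPM in SP-9 and SP-10 and 33.97 and 19.1 CPM in Ischemia-4 and Ischemia-3, Cd8b1 at 18.98 and 14.5 and 45.1 and 40.98 CPM, and the natural killer receptor gene Ncr1 at 1.504 and 0.268 and 1.39 and 2.09 CPM. Of the 7 CD8 T and natural killer cell markers, 4 were called higher and 0 lower in brain, beside 20.0% and 17.6% of all genes. Between the 2 brain libraries, Ischemia-3, which had more Ifng, was higher in Nkg7, Klrd1, Klrb1c and Ncr1 and lower in Cd8a, Cd8b1 and Prf1. The part of such cells in the Ifng reads was not tested.

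**Figure D3:**
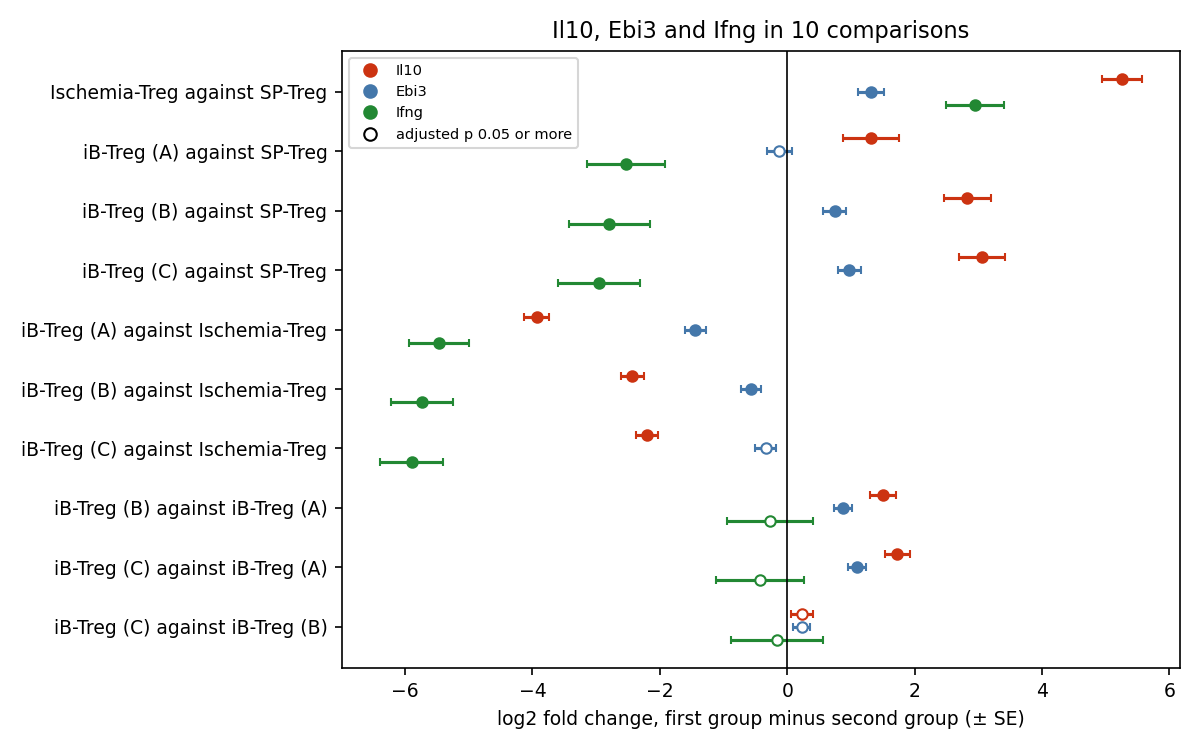
log2 fold change (first group minus second group, points, with SE as bars) of Il10, Ebi3 and Ifng in the 10 comparisons, with open points for an adjusted p of 0.05 or more. Ifng lies at -2.53 to -2.96 in the iB-Tregs against SP-Tregs, where Il10 lies at 1.32 to 3.05.

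Il17a, Il21 and Il2 stayed at or near the limit of detection. Il17a had reads in 2 libraries, 3 in Ischemia-3 and 3 in B-Treg1, and 0 in the other 8. Il21 had 1 read in SP-10 and 0 in SP-9 and both brain libraries, 1 and 0 in iB-Tregs (A), 3 and 8 in (B) and 2 and 6 in (C). Il2 had 0 reads in both spleen libraries, 1 and 2 in the brain libraries and 0 to 2 in each iB-Treg library. The 6 iB-Treg libraries set the tightest limits, since 3 reads over a group equal 0.0790 to 0.0834 CPM there. With no filter on low counts, none of these 3 genes or Il12a was called by edgeR in any of the 10 comparisons. The lowest adjusted p among them was 0.0855, for Il17a in iB-Tregs (A) against Ischemia-Tregs, where the reads were 0 and 0 against 0 and 3, and at an unadjusted p under 0.05 there were 2 such results, both for Il17a. Differences in these genes were thus not detectable at this depth.

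**Figure D4:**
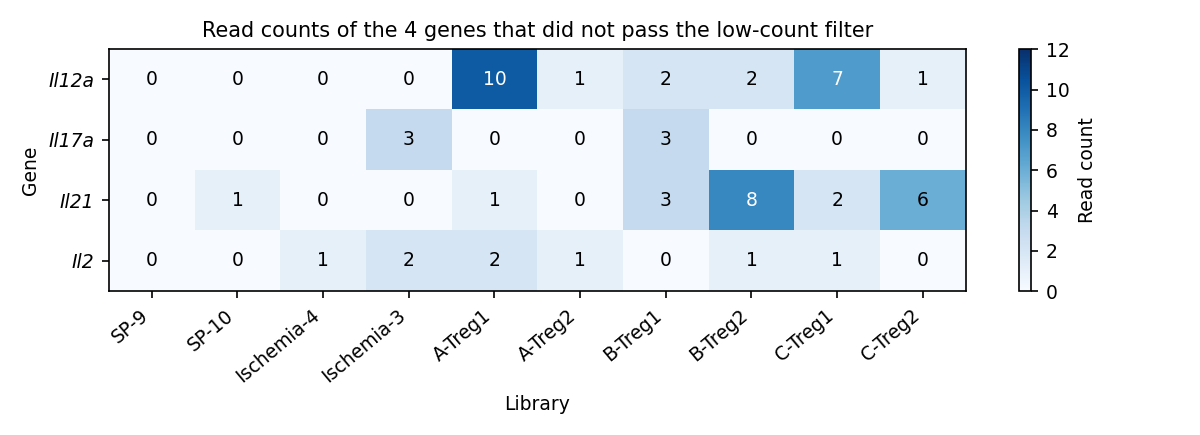
Read counts (numbers and colour) of Il12a, Il17a, Il21 and Il2 in each library, for the 4 genes that did not pass the low-count filter. No cell exceeds 10 reads, and Il21 has 8 and 6 reads in B-Treg2 and C-Treg2 against at most 1 in the spleen, brain and (A) libraries.

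The balance between members also differed between groups. Per kilobase of gene length, Ebi3 exceeded Il10 by factors of 14.9 and 17.3 in SP-9 and SP-10, 5.33 and 6.56 in iB-Tregs (A), 3.46 and 4.18 in (B) and 4.24 and 3.39 in (C). In Ischemia-4 and Ischemia-3 the same ratio was 0.811 and 1.32, so that Il10 and Ebi3 were nearly level only in the brain libraries, which did not overlap with any other group. The ratio of Ifng to Il10 per kilobase was 2.87 and 2.23 in SP-9 and SP-10, 0.332 and 0.728 in Ischemia-4 and Ischemia-3, 0.107 and 0.263 in iB-Tregs (A), 0.0694 and 0.0283 in (B) and 0.0357 and 0.0415 in (C). Ifng thus exceeded Il10 in SP-Tregs and was below it in all other libraries. The 7 members summed to 19.2 and 24.9 CPM in SP-Tregs, 99.4 and 131 CPM in Ischemia-Tregs, 20.5 and 19.03 CPM in (A), 39.6 and 37.5 CPM in (B) and 44.9 and 44.9 CPM in (C). These ratios and sums are descriptions with no test.

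Among cytokine genes related to the members, Tgfb1, which encodes another suppressive cytokine of Tregs, rose from 207 CPM in SP-Tregs to 405 CPM in Ischemia-Tregs (log2 fold change 0.97, SE 0.07, adjusted p = 1.86e-08). The 5 related genes tested had a median log2 fold change of 0.03 there, beside 0.00 over all genes. Of these 5, 2 were called higher and 0 lower, beside 20.0% and 17.6% of all genes. The other was Csf2, the gene of GM-CSF, named after its values were seen, with 0 reads in both SP-Treg libraries and 6.70 and 3.29 CPM in Ischemia-4 and Ischemia-3, at least 15.7-fold higher against 3 counts over the spleen group. Csf2 was also higher in iB-Tregs (B) than (A), at 3.04 and 1.59 against 0.568 and 0.806 CPM (log2 fold change 1.74, SE 0.48, adjusted p = 0.0203). Lta, the gene of lymphotoxin alpha, went the other way from Il10 in culture. It was at 122 and 119.8 CPM in (A), 69.5 and 69.4 in (B) and 68.1 and 77.97 in (C), with a log2 fold change of -0.80 in (B) against (A) (adjusted p = 2.26e-06), and at 21.4 CPM in SP-Tregs. Il22 and Il20 had no read in any library.

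Transcription factors known to act on these genes in T cells, 25 in the list, were all tested. In Ischemia-Tregs against SP-Tregs, 17 were called higher and 2 lower, beside 20.0% and 17.6% of all genes, with a median log2 fold change of 0.63 beside 0.00 over all genes. The largest rises among those at 10 CPM or more were in Bhlhe40, a repressor of Il10 in mouse T cells, from 40.7 to 2031 CPM (log2 fold change 5.62, SE 0.10, adjusted p = 2.34e-16), and Nfil3, an activator of Il10, from 10.8 to 162 CPM (log2 fold change 3.93, SE 0.13, adjusted p = 2.76e-13). Rora, which acts in type 17 cells and tissue Tregs, rose by 2.70 (adjusted p = 3.54e-13) and Gata3, a tissue Treg and type 2 factor, by 1.99 (adjusted p = 8.48e-09) on the log2 scale. The counts of the list depend on the scale: relative to the Cd3 counts 9 were called higher and 7 lower, and Bhlhe40, Nfil3, Rora and Gata3 stayed higher.

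In iB-Tregs (A) against SP-Tregs, 6 of the 25 factors were called higher and 15 lower, beside 39.8% and 32.5% of all genes, and relative to the Cd3 counts 9 higher and 13 lower. Bhlhe40 and Nfil3 were again among the higher, at 583 CPM (log2 fold change 3.82, adjusted p = 5.39e-15) and 129 CPM (12.1-fold, adjusted p = 1.14e-13). Bcl6, a repressor known from follicular T cells, was lower, at 8.22 against 50.1 CPM (log2 fold change -2.60, adjusted p = 9.89e-11).

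In iB-Tregs (B) against (A), 8 of the 25 factors were called higher and 3 lower, beside 8.83% and 6.68% of all genes. The 4 largest changes were in Hlx, a partner of T-bet at Ifng in mouse T cells, and in 3 factors with roles in effector Tregs. Hlx was at 13.5 and 11.4 CPM in (A) and 31.4 and 32.4 CPM in (B) (log2 fold change 1.36, SE 0.15, adjusted p = 4.93e-06). Prdm1, which encodes Blimp-1, an activator of Il10 in Tregs, was at 17.1 and 17.3 and 38.03 and 40.5 CPM (log2 fold change 1.19, SE 0.12, adjusted p = 2.22e-06). Maf, which encodes c-Maf, another activator of Il10, was at 65.9 and 67.8 and 150.4 and 145 CPM (log2 fold change 1.14, SE 0.07, adjusted p = 5.77e-09), and Rora rose by 1.05 (adjusted p = 2.80e-07). In (C) against (A), 9 were called higher and 4 lower, beside 9.71% and 8.87% of all genes, with Hlx, Maf, Rora and Ahr changing most, and Ahr, the aryl hydrocarbon receptor gene, was at 33.7 and 34.6 and 75.9 and 73.5 CPM (log2 fold change 1.13, SE 0.09, adjusted p = 1.34e-07). None of the 25 was called in (C) against (B). The summed microglia and macrophage markers were also higher in (B) and (C) than in (A). The part of such cells in the reads of these factors was not tested. Even in (B), Maf in CPM stayed below its level in SP-Tregs, 244 and 233 CPM, where Il10 was lowest. The summed Cd3d, Cd3e and Cd3g level was lower in (B) too, at 771 and 773 against 1262 and 1325 CPM. This order of Maf thus depends on the scale.

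**Figure D5:**
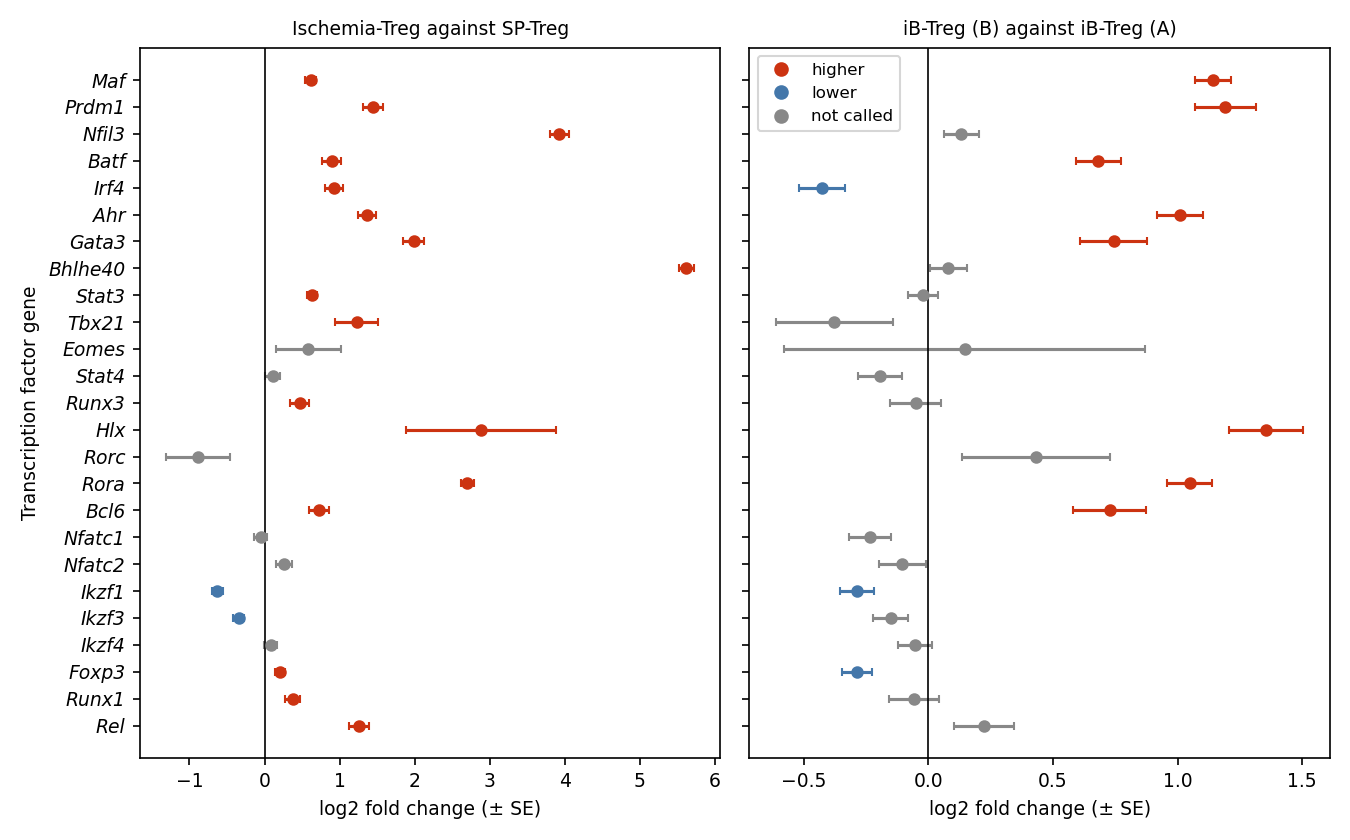
log2 fold change (points, with SE as bars) of 25 transcription factor genes in Ischemia-Treg against SP-Treg (left) and iB-Treg (B) against iB-Treg (A) (right), coloured by the call, on axes of different range. In the left panel 17 are higher and 2 lower, and in the right panel 8 are higher and 3 lower.

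Factors of the Ifng locus followed Ifng in part. Eomes, a T-box activator of Ifng, was at 10.3 and 3.75 CPM in SP-9 and SP-10, 12.02 and 9.87 CPM in Ischemia-4 and Ischemia-3 and 0.369 to 0.559 CPM in the iB-Treg groups, with a log2 fold change of -4.28 in iB-Tregs (C) against Ischemia-Tregs (SE 0.51, adjusted p = 1.31e-06). Tbx21, which encodes T-bet and was named after its values were seen, was at 12.2 and 5.63 CPM in SP-9 and SP-10, 20.3 and 23.6 CPM in Ischemia-4 and Ischemia-3 and 5.46 to 7.10 CPM in the iB-Treg groups. The Eomes levels of the spleen and brain libraries thus overlapped, and Tbx21 in SP-10 lay within the range of the iB-Treg group means. Hlx had another order, 0.268 CPM in SP-Tregs, 1.60 CPM in Ischemia-Tregs and 12.4 to 31.9 CPM in the iB-Treg groups. In iB-Tregs (C) against Ischemia-Tregs, 2 of the 25 factors were called higher and 18 lower, beside 37.7% and 30.5% of all genes, and relative to the Cd3 counts 9 higher and 13 lower. Bcl6 and Rora were among the 4 largest changes there, at -2.73 (adjusted p = 2.26e-11) and -3.70 (adjusted p = 1.18e-15).

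The receptor for interferon-gamma changed with tissue. Ifngr1, its ligand-binding chain, was at 156 and 195 CPM in SP-9 and SP-10 and at 1124 and 1175 CPM in Ischemia-4 and Ischemia-3 (log2 fold change 2.72, SE 0.09, adjusted p = 2.76e-13). Ifngr2, the signalling chain, rose less (log2 fold change 0.60, SE 0.15, adjusted p = 0.00475). In culture, Ifngr1 was at 544 and 569 CPM in (A), 663 and 659 in (B) and 777 and 788 in (C). In CPM all lay between spleen and brain. The summed Cd3d, Cd3e and Cd3g level was 767 to 885 CPM in the iB-Treg libraries and 1690 and 1982 CPM in brain. The order of Ifngr1 against brain thus depends on the scale. Ifngr1 was higher in (B) than (A) by 0.25 (adjusted p = 0.0340) and in (C) than (A) by 0.49 (adjusted p = 1.74e-04). Of 13 receptor genes tested, 6 were called higher and 3 lower in brain against spleen (2 higher and 5 lower relative to the Cd3 counts), beside 20.0% and 17.6% of all genes. In iB-Tregs (A) against SP-Tregs 6 were higher and 4 lower, near the shares of all genes, 39.8% and 32.5%. There, Il12rb1, shared by the IL-12 and IL-23 receptors, rose from 7.85 to 54.8 CPM (log2 fold change 2.79, SE 0.17, adjusted p = 2.59e-10). In iB-Tregs (C) against Ischemia-Tregs, 4 receptor genes were higher and 8 lower, beside 37.7% and 30.5% of all genes, but 12 were higher and 0 lower relative to the Cd3 counts. Il10ra in (C) was -1.14 against Ischemia-Tregs (adjusted p = 2.29e-06), but like the other receptor genes it was not called lower relative to the Cd3 counts.

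Genes that respond to interferon-gamma were counted in the same comparisons as Ifng. Of 12 tested, 4 were called higher and 1 lower in Ischemia-Tregs against SP-Tregs, beside 20.0% and 17.6% of all genes, with a median log2 fold change of 0.07 beside 0.00 over all genes, and relative to the Cd3 counts 2 were higher and 7 lower. Cxcl10, a chemokine gene induced by interferons, rose from 2.91 to 24.4 CPM (log2 fold change 2.99, SE 0.30, adjusted p = 6.72e-07), and Ciita, the master regulator of MHC class II, from 6.45 to 14.3 CPM (log2 fold change 1.17, SE 0.38, adjusted p = 0.0222). The guanylate-binding protein gene Gbp7 changed by 0.42 (adjusted p = 0.00195), or -0.079 relative to the Cd3 counts, and the GTPase gene Iigp1 by -0.33 (adjusted p = 0.0393). The fourth rise was in Cxcl9, another such chemokine gene, with 0 reads in spleen and 1.85 and 0.897 CPM in Ischemia-4 and Ischemia-3, and it was named after its values were seen. In iB-Tregs (A) against SP-Tregs, 4 were called higher and 5 lower, shares near those of all genes (39.8% and 32.5%), with Cxcl10 (2.22) and Irgm1 (1.53) among the higher and Gbp7 (-2.00) and Iigp1 (-1.91) among the lower. In (B) and (C) against SP-Tregs, 5 and 5 were higher, beside 39.3% and 39.1% of all genes. There, 7 and 5 were lower, beside 32.5% and 32.2% of all genes. Against Ischemia-Tregs, 3 were called higher in each of (A), (B) and (C) and 7, 8 and 6 lower, beside 38.5%, 38.3% and 37.7% of all genes called higher and 30.9%, 30.8% and 30.5% lower. The median log2 fold changes there were -0.56, -0.89 and -1.16, beside 0.14, 0.14 and 0.15 over all genes. Relative to the Cd3 counts the same comparisons had 7, 5 and 5 higher and 2, 4 and 4 lower.

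The readouts of IL-10 and IL-2 signalling were measured from lists of 5 genes each. In brain against spleen, 4 of the IL-10 and STAT3 genes were called higher and 0 lower, beside 20.0% and 17.6% of all genes, led by Bcl3, a target of STAT3, from 49.2 to 105 CPM (log2 fold change 1.10, SE 0.10, adjusted p = 3.05e-07) and Stat3 itself (log2 fold change 0.63, SE 0.07, adjusted p = 1.39e-06), and relative to the Cd3 counts 1 was higher and 1 lower. Socs3, a feedback inhibitor downstream of STAT3, was the gene of this list called in (B) against (A) and in (C) against (A), at 0.34 (adjusted p = 0.00325) and 0.51 (adjusted p = 7.20e-05). All 5 genes that respond to IL-2 through STAT5 were higher in iB-Tregs (A), (B) and (C) than in SP-Tregs, also relative to the Cd3 counts, beside 39.8%, 39.3% and 39.1% of all genes. IL-2, anti-CD3, anti-CD28 and astrocytes were part of every culture, so their parts in these rises cannot be told apart. Il2 itself had at most 2 reads in a library. Socs2 rose from 29.5 CPM in SP-Tregs to 396 CPM in (A) (log2 fold change 3.72, SE 0.10, adjusted p = 5.55e-15) and Cish, like Socs2 a feedback inhibitor of cytokine signalling, from 198 to 872 CPM (log2 fold change 2.15, SE 0.08, adjusted p = 7.27e-13). In brain against spleen the same list divided, 2 higher and 3 lower, beside 20.0% and 17.6% of all genes, with Cish at 0.98 (adjusted p = 1.56e-07), the survival gene Bcl2 at -1.26 (adjusted p = 1.24e-08) and the cytokine gene Osm at -1.76 (adjusted p = 2.65e-04).

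The genes most like each tested member were sought among 9846 protein-coding genes that reached 10 CPM in some library, by Pearson's r of log2(CPM + 1) over the 10 libraries. Most like Il10 were Ablim3 (r = 0.992), Zfp36 (r = 0.987), which encodes the mRNA-destabilizing protein tristetraprolin, and Aplp1 (r = 0.984). Zfp36 was at 129.8 CPM in SP-Tregs, 616 CPM in Ischemia-Tregs and 209, 278 and 299.7 CPM in iB-Tregs (A), (B) and (C). Most like Ebi3 were Ahr (r = 0.977), Atp6v1e1 (r = 0.975) and Egr1 (r = 0.944), and most like Ifng were the chemokine gene Ccl1 (r = 0.996), Inpp5d (r = 0.995) and Lysmd3 (r = 0.9904). Ccl1 had mean levels of 1.97 CPM (spleen) and 20.3 CPM (brain) and was at or near 0 in the iB-Treg groups. Between members r was 0.884 for Il10 and Ebi3, 0.581 for Il10 and Ifng and 0.463 for Ebi3 and Ifng. The 10 points share 5 groups and the 2 libraries of a group are close, so these values describe the order of the groups more than independent points.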

How the data were processed

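RNA-seq libraries of mouse Tregs were analysed from 1 table of counts per gene. The authors deposited whole-number counts, neither normalized nor pooled, with an exonic length per gene. The methods describe trimming, HISAT2 alignment to GRCm38 and featureCounts, and the processing notes of the submitters list HISAT2 2.0.1, HTSeq 0.6.1 and mm10, so the counting tool is uncertain. All columns of counts were used. Spleen and brain columns are headed by numbers that match no replicate label, so they enter as libraries of their group.

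The 4 spleen and brain columns slide down against their gene IDs and are 172 rows longer than the column of IDs. A hidden Markov model of the counts, with steps favoured where an ID of GENCODE vM21 (GRCm38) is absent from the table, returned 33083 IDs to their rows at a posterior of at least 0.99. All 26 steps fell at such an absent ID, as the model favours. Decoded without use of the absent IDs, 32636 of the 32637 IDs kept in both runs had the same shift. Over the moved rows, r between in vivo and iB-Treg log2 counts went from 0.337 to 0.936. The rows were placed by this likeness, so the rise in r is not an independent check. The kept IDs held 86.8% to 95.3% of the counts in these libraries, and 22318 IDs were left out.

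Tests used edgeR 4.0.16 under R 4.3.3 (TMM, filterByExpr, quasi-likelihood F test, 1 fit of 5 groups) in 10 comparisons, with a Benjamini-Hochberg adjusted p under 0.05 over 14309 genes as the threshold. Each group has 2 libraries, and an exact permutation test of 2 against 2 cannot go below p = 0.333. Intervals of counts are exact 95% Poisson intervals and cover counting error only. The test was run first on simulated data with 200 genes changed by known folds. It recovered 47.8% to 70.1% of 1.5-fold changes and 89.4% to 98.5% of 4-fold changes. Of its calls, 2.80% were false in Ischemia-Tregs against SP-Tregs and 7.74% in (C) against SP-Tregs. The false share was 10.3% in (B) against (A) and 12.3% in (C) against (B), above the adjusted p threshold of 0.05. Alternatives covered the scale, the filter, DESeq2 1.42.0, the libraries in the fit, a replicate block and the realigned rows. The scale from Cd3 counts was chosen after seeing the data.

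The members and gene lists were chosen with earlier results of these data known. Besides members, up to 4 called genes per list and comparison with the largest change among those at 10 CPM or more in the higher group, receptor chains of members, and the 3 genes most like each tested member were named. A result that this rule selects is not reported here.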

Additional observations from a re-analysis of the deposited data

How the results depend on the processing

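Il10 kept its direction and its call in all comparisons under all alternatives except iB-Tregs (A) against SP-Tregs, where leaving out a library gave 1.17 to 1.51 and the call was lost without SP-9. Ifng kept direction and call in all comparisons with SP-Tregs and Ischemia-Tregs. Ebi3 kept both in Ischemia-Tregs against SP-Tregs, (C) against SP-Tregs, (B) against (A) and (C) against (A). Ebi3 in (C) against Ischemia-Tregs became called with DESeq2's size factors (-0.38, adjusted p = 0.0454), with protein-coding genes setting the scale (-0.44, adjusted p = 0.0239) and with the listed stretches of rows alone (-0.37, adjusted p = 0.0495), and leaving out a library gave -0.60 to -0.0043. Library totals alone turned Ebi3 to 0.39 in (A) against SP-Tregs, 0.071 in (B) and 0.29 in (C) against Ischemia-Tregs, none called. Some results of named list genes lost their call when a library was left out. The scale from Cd3 counts gave Ebi3 0.61 in (A) against SP-Tregs, which was called. Against Ischemia-Tregs it gave Ebi3 -0.20 in (A), not called, and 0.68 in (B) and 0.76 in (C), both called. Gbp7 was -0.079 on this scale in Ischemia-Tregs against SP-Tregs. Relative to the Cd3 counts, 6 further results of named list genes lost their call and 54 kept direction and call. With library totals alone, 2 such results lost their call. These 2 scales move the median of all genes: for iB-Tregs against SP-Tregs from 0.13 to 0.14 on the log2 scale to 0.59 to 0.66 with library totals and 0.74 to 0.88 with Cd3 counts, and for Ischemia-Tregs against SP-Tregs from 0.00 to -0.14 and -0.46. The share of calls that are higher went with them, from 53.3% to 34.9% and 15.8% in Ischemia-Tregs against SP-Tregs, from 54.7% to 55.1% to 71.8% to 73.6% and 76.8% to 80.3% in iB-Tregs against SP-Tregs, from 55.3% to 55.5% to 78.6% to 79.2% and 87.9% to 89.4% against Ischemia-Tregs, from 56.9% to 43.5% and 65.2% in (B) against (A), and from 52.3% to 38.1% and 29.5% in (C) against (A). Leaving out a library gave Ebi3 -0.34 to 0.12 in (A) and 0.53 to 0.99 in (B) against SP-Tregs and -0.83 to -0.23 in (B) against Ischemia-Tregs, and Ifng -1.22 to 0.30 in (B) against (A), -0.83 to 0.10 in (C) against (A) and -0.73 to 0.80 in (C) against (B), where Ifng was never called.

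The count of genes called changed with the libraries that set the spread. With only the 4 libraries compared it was 3163 in Ischemia-Tregs against SP-Tregs in place of 5379, 4370 in (B) against (A) in place of 2220, 4675 in (C) against (A) in place of 2659 and 887 in (C) against (B) in place of 22. With all gene IDs of the 6 iB-Treg libraries it was 4435, 5121 and 526. In (C) against (B), no filter gave 125 and DESeq2 93. Leaving out a library gave 900 to 3219, 1180 to 3836 and 0 to 137, with 0 in (C) against (B) without B-Treg1 or C-Treg2.

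With a replicate block among the 6 iB-Treg libraries the counts were 4144, 4836 and 499, and it changed no call of a member. The deviations of same-numbered libraries had correlations of 0.04, -0.04 and 0.01, so no common deviation was seen. With 2 libraries per group, this cannot exclude a shared animal, culture or batch.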
